A study of Mus musculus with 6 samples.

Results

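Hemoglobin transcripts were measured in whole cortical tissue of young and aged mice. The genes described here are the adult alpha globin genes *Hba-a1* and *Hba-a2*, the adult beta globin genes *Hbb-bs* and *Hbb-bt*, and *Alas2*, the erythroid form of the enzyme that starts heme synthesis. These 5 of the 38355 genes listed in the count tables were chosen by name with earlier results on the same samples known, so their differences between the ages are given as a description, without a test. The samples were dissected cortical hemispheres of wild-type C57BL/6, a common inbred strain, 3 taken at 6 months and 3 at 16 months, and the labels name no other treatment or allele. One housing note among the sample descriptions gives 3 months for the younger age, whereas all other descriptions give 6 months, the age used here. The comparison asked which transcripts differ between young and aged cortex. For RNA the methods describe dissection and freezing of the tissue and name no perfusion, which they describe for immunohistochemistry.

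Hemoglobin of adult mice is a tetramer of alpha and beta chains, each holding a heme group that binds oxygen. The genes of both chains, and *Alas2*, are switched on by erythroid transcription factors while red cell precursors mature in bone marrow and spleen, and reticulocytes in the circulation still carry their mRNA. Brain tissue holds blood in its vessels, and transcripts of hemoglobin chains have also been described in neurons and glia. In RNA from whole tissue, more cells that carry a transcript and more transcript per cell cannot be told apart.

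The globin genes come as near-identical pairs, which bears on how their reads were counted. On the mouse genome GRCm38 (mm10), *Hba-a1* lies at chr11:32283511-32284465 and *Hba-a2* at chr11:32296489-32297298, both on the plus strand. *Hbb-bs* lies at chr7:103826534-103828096 and *Hbb-bt* at chr7:103812524-103813996, both on the minus strand, and each of the 4 globin genes has 3 exons. The coding sequences of the alpha pair are 426 bases long and identical at 425 of them. Those of the beta pair are 441 bases long and identical at 440. The stretches of 21 coding bases around the single difference of each pair are shown because they are the only coding bases that separate the copies, with the differing base in capitals (C381T from *Hba-a1* to *Hba-a2* and C417T from *Hbb-bs* to *Hbb-bt*, counted from the first base of the coding sequence).
Hba-a1: cctctctggaCaaattccttg
Hba-a2: cctctctggaTaaattccttg
Hbb-bs: ctggagtggcCgctgccctgg
Hbb-bt: ctggagtggcTgctgccctgg

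Between an alpha and a beta gene the coding identity was 57.3% to 57.5%, so that reads of the 2 chains were separable. Of all stretches of 100 bases, the length of a read, 56.5% in the transcripts of *Hba-a1* and 74.5% in those of *Hba-a2* occurred also in the other alpha gene. The corresponding shares were 62.6% for *Hbb-bs* and 54.8% for *Hbb-bt*. Reads that align equally well to more than one place were not counted, and the counts of the globin genes therefore rest on the parts of the transcripts, and the read pairs, that differ within a pair. Differences between copies of a pair are uncertain for this reason. *Alas2*, at chrX:150547375-150570638 on the plus strand with 11 exons, shared 11% of such stretches with *Apex2*, which overlaps it on the opposite strand.

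The stretches before the transcription start of the globin genes and *Alas2* are shown because the genes differed between the ages in the same direction. They are the 120 bases upstream of the RefSeq start on GRCm38.p6, written along the strand of the gene. The RefSeq starts lie inside the gene spans given above, which begin at the outermost annotated transcript, so that these bases fall wholly (*Hba-a1* and *Hbb-bs*) or in part (*Hbb-bt* and *Alas2*) within the spans. Capitals mark 4 motifs. The motif of GATA factors was searched as AGATAA, or with T in place of the first A, on both strands. The CACCC box, known as the site of erythroid Krüppel-like factors, and the CCAAT box were also searched on both strands. The TATA box was searched as ATATAA on the strand of the gene.
Hba-a1, chr11:32283552-32283671: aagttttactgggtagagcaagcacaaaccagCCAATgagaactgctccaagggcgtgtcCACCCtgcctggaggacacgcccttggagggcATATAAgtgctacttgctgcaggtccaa
Hbb-bs, chr7:103827929-103828048: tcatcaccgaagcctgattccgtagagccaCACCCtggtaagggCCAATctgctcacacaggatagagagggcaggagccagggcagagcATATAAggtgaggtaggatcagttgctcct
Hbb-bt, chr7:103813924-103814043: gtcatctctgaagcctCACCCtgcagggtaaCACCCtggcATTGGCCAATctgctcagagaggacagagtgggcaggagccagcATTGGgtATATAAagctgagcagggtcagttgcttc
Alas2, chrX:150547297-150547416: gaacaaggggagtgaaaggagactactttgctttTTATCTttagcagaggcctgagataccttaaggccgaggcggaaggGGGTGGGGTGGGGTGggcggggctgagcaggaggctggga

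The alpha genes shared an unbroken run of 247 bases over the 250 bases before their starts, so *Hba-a2* is not printed. *Hbb-bs* and *Hbb-bt* were identical at 69.3% of aligned positions over the same distance. The printed globin stretches each held a TATA box, and each also held the CCAAT box and the CACCC box. That of *Alas2* held a GATA factor motif and adjoining CACCC boxes, all on the opposite strand, and no match overlapped another. Of 32851 mouse promoters, 2.9% held the TATA box letters in the same 120 bases, 21.3% those of the CCAAT box, 31.7% those of the CACCC box and 7.6% those of GATA factors. Upstream of the printed bases, within the 250 bases searched, *Hba-a1*, *Hba-a2* and *Hbb-bs* each held 1 GATA factor motif, at -183, -186 and -210. *Hbb-bt* held none. Over 250 bases, 16.6% of the promoters held these letters. The matches describe the letters alone.

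Total counts per sample ranged from 29797253 to 46519280, so that 3 counts, taken as the floor of detection for counting error, corresponded to 0.0645 to 0.101 CPM (counts on a gene per 1000000 counted reads). Of the 17120 genes that passed the filter on low counts, 286 (1.67%) had an adjusted p under 0.05 in edgeR's quasi-likelihood test, 134 of them higher at 16 months (0.783%) and 152 lower (0.888%). An unadjusted p under 0.05 was found for 2987 genes (17.4%), the background for such counts in the gene lists. Leaving out 1 sample gave between 48 and 2211 such genes, the lowest when young replicate 3 and the highest when aged replicate 2 was left out. In replicate 1 and replicate 2 of 16 months the deviation of genes from the mean of their age correlated across genes with GC content (r = 0.588 and -0.582), against -0.130 to 0.160 in the other samples, and the part of this in the values below was not tested beyond the offsets for GC content and length given with them. The 5 defining genes of cortical neurons and glia checked against the labelled tissue (*Slc17a7*, *Neurod6*, *Gad1*, *Aqp4* and *Mbp*) were abundant, with a summed level of 4607 to 4758 CPM at 6 months and 4459 to 5024 CPM at 16 months, and none of which was called (edgeR; 1 with an unadjusted p under 0.05; DESeq2 0).

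The adult globins were higher at 16 months in every sample. Summed over the 4 genes, the level was 28.4, 27.9 and 25.8 CPM in replicates 1, 2 and 3 of 6 months, and 47.2, 41.6 and 42.2 CPM in those of 16 months. The means were 27.4 ± 1.37 CPM and 43.7 ± 3.09 CPM (SD, n = 3 each), a ratio of 1.59. The lowest aged sample lay 13.2 CPM above the highest young sample, and the samples of one age spanned 2.56 CPM (6 months) and 5.64 CPM (16 months). On the log2 scale the difference was 0.67.

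*Hbb-bs*, the more abundant adult beta globin, carried most of these reads. Its level was 19.6, 19.9 and 17.1 CPM at 6 months and 33.4, 30.0 and 28.3 CPM at 16 months, from 598 to 1108 counts per sample. The ages lay apart by 8.35 CPM, more than the range within either age (2.82 and 5.14 CPM). The log2 fold change was 0.70 ± 0.083 (SE of the edgeR fit).

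*Hbb-bt*, the second adult beta globin of this haplotype, had 4.22, 4.0 and 3.65 CPM at 6 months and 6.00, 5.87 and 6.09 CPM at 16 months. The aged samples were close to each other, with a coefficient of variation of 1.85%. Counting error alone gives 6.93% for the one with the most counts, replicate 3 with 208. The log2 fold change was 0.60 ± 0.090.

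*Hba-a1* had 2.97, 2.10 and 3.12 CPM at 6 months and 4.46, 3.73 and 4.57 CPM at 16 months, with a log2 fold change of 0.62 ± 0.15. Replicate 2 was the lowest sample at both ages. *Hba-a2*, which encodes an alpha chain from a nearly identical coding sequence, had 1.6, 1.90 and 1.93 CPM at 6 months and 3.32, 1.95 and 3.25 CPM at 16 months. Replicate 2 of 16 months, from 61 counts, thus lay only 0.015 CPM above the highest young sample, and the other aged samples lay well above it. The log2 fold change of *Hba-a2* was 0.66 ± 0.20, the least precise of the 5 genes.

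*Alas2*, whose product supplies the heme of hemoglobin, had 2.39, 1.97 and 1.5 CPM at 6 months and 3.08, 3.32 and 3.45 CPM at 16 months. The young samples differed more among themselves (coefficient of variation 22.7%) than the aged samples (5.82%). The log2 fold change was 0.74 ± 0.16. *Apex2*, a DNA repair gene whose span holds *Alas2* on the other strand, had 8.98 ± 0.889 CPM at 6 months and 9.59 ± 1.25 CPM at 16 months (n = 3 each), a log2 fold change of 0.10 ± 0.11 that did not pass edgeR's test (adjusted p = 0.672). The library kit does not mark the strand, so that reads in stretches common to both genes could not be assigned to either by strand.

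**Figure D1:**
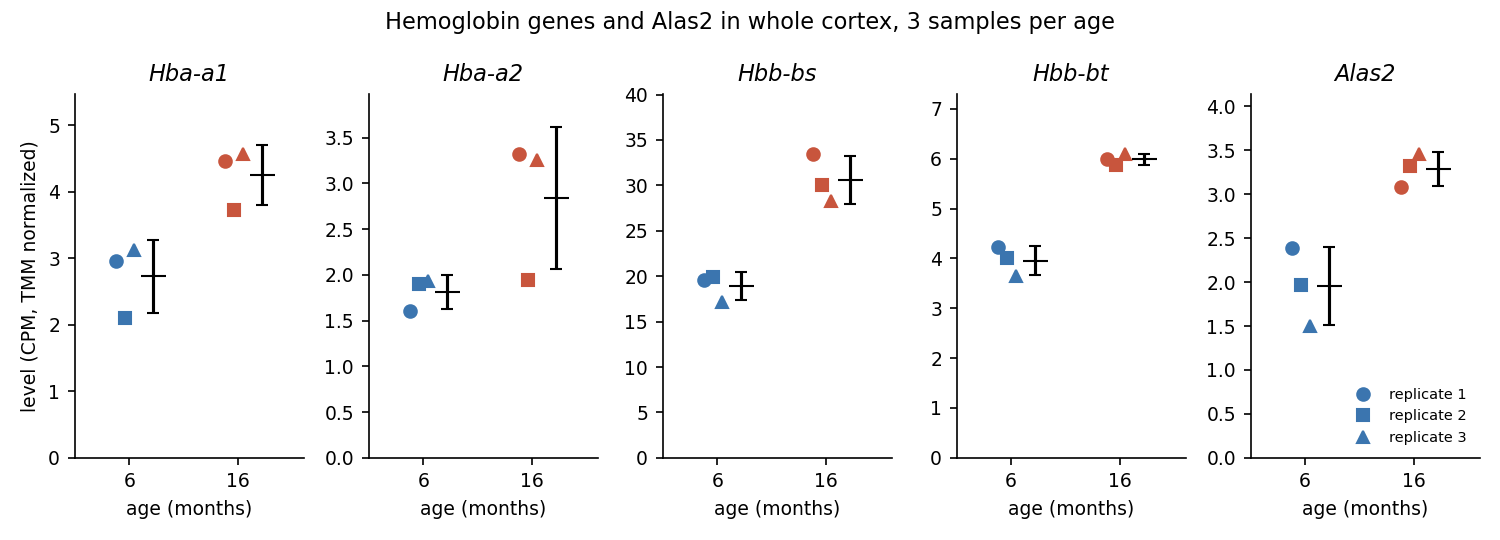
Level (CPM, TMM normalized) of the 5 genes by age in months; symbols are samples, their shape is the replicate number, and bars are the mean and SD of 3 samples. In each panel all aged samples lie above all young samples, by 0.015 CPM in *Hba-a2* and by 8.35 CPM in *Hbb-bs*.

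All 5 genes passed the filter on low counts, and in each of them the 3 aged samples lay above the 3 young samples, an arrangement that 12.2% of all tested genes had. Of the 5, *Hbb-bs* and *Hbb-bt* were among the 286 called genes. The share over all tested genes was 1.67%, or 0.783% for genes higher at 16 months, but the genes were chosen from this comparison and the count supports nothing further. The number called depended on the samples and the processing. It was 1 (*Hbb-bs*) on leaving out any single sample of 6 months or aged replicate 3, 4 on leaving out aged replicate 1, and 5 on leaving out aged replicate 2. The share called over all tested genes moved with it, from 0.277% to 0.335% in the first of these cases to 5.73% and 12.7% in the others. *Hbb-bs* was called under each of the 15 alternatives tried, which reuse the samples it was chosen from and so add no support.

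The direction was the same under each of these choices. As every aged sample lay above every young one in each gene, leaving samples out could not be expected to reverse it, so this adds no support. The log2 fold change lay between 0.63 and 0.78 for *Hbb-bs*, 0.54 and 0.67 for *Hbb-bt*, 0.49 and 0.72 for *Hba-a1*, 0.45 and 0.87 for *Hba-a2* and 0.57 and 0.99 for *Alas2* over 13 alternatives each. The lowest value of *Hba-a2* and the highest of *Alas2* were those without the replicate 1 samples of both ages. Offsets for GC content and gene length gave 0.75 for the summed globins, against 0.67 without them.

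**Figure D2:**
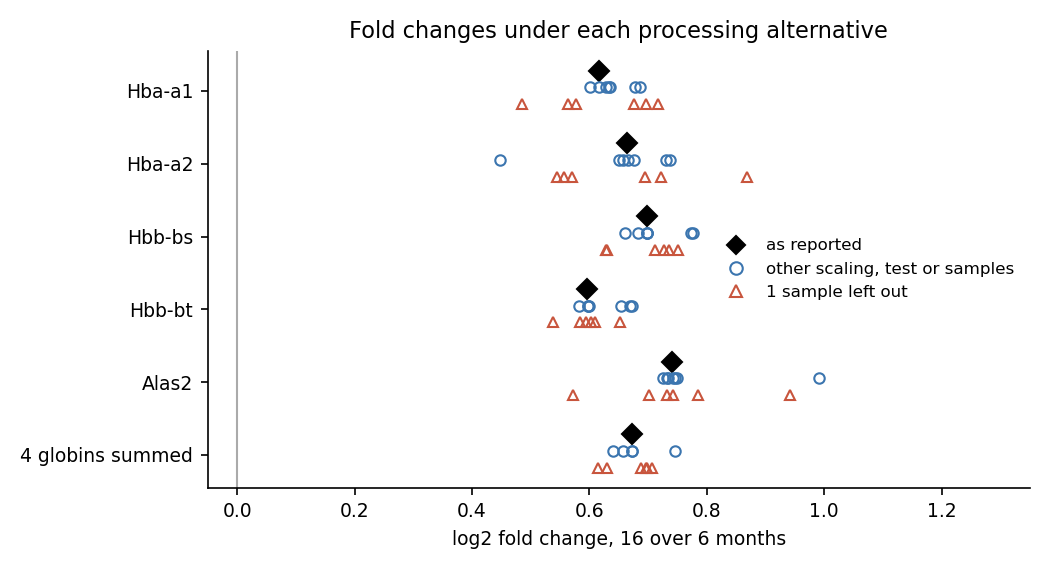
Log2 fold change (16 over 6 months) of each gene and of the summed globins as reported (diamonds), with other scalings, tests or samples (circles), and with 1 sample left out (triangles). All values lie above 0, from 0.45 to 0.99, and the summed globins lie between 0.61 and 0.75.

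Compared per length of their exons, the genes differed widely in level. *Hbb-bs* had 24.6 CPM per kilobase at 6 months and 39.8 at 16 months, above 88.8% and 93.8% of 16904 tested genes of known length. *Hbb-bt* had 5.63 and 8.52 CPM per kilobase, *Hba-a1* 3.36 and 5.24, and *Hba-a2* 2.71 and 4.26. *Alas2* was the lowest, with 0.813 and 1.37 CPM per kilobase, above 21.6% and 29.3% of the genes. The lengths include the stretches shared within a pair, for which these levels were not corrected.

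The proportion of alpha to beta chain reads did not separate the ages. The alpha genes gave 16.1% (95% Wilson interval 14.2% to 18.2%), 14.3% (12.1% to 16.9%) and 19.6% (17.3% to 22%) of globin counts in replicates 1, 2 and 3 of 6 months. In those of 16 months they gave 16.5% (14.7% to 18.4%), 13.7% (11.9% to 15.6%) and 18.5% (16.6% to 20.6%). At both ages replicate 2 was the lowest and replicate 3 the highest, and within an age the intervals of these samples did not overlap. The intervals and floors hold for counting error alone, as the reads carried no molecular identifiers and may repeat a molecule.

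Expressed as a ratio, alpha over beta counts was 0.192, 0.167 and 0.243 at 6 months and 0.197, 0.158 and 0.227 at 16 months. The means were 0.201 ± 0.0389 and 0.194 ± 0.0347 (SD, n = 3 each), and the log2 difference of -0.045 was smaller than the SD within either age on that scale (0.27 and 0.26). Per exon length the ratio was 0.203 ± 0.0380 and 0.197 ± 0.0364, and per stretch of 100 bases that no other gene holds it was 0.239 ± 0.0411 and 0.232 ± 0.0485. The log2 difference ranged from -0.17 to 0.10 over the alternatives, with a sign that depended on which sample was left out, being 0.10 when young replicate 3 and 0.095 when aged replicate 2 was left out.

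**Figure D3:**
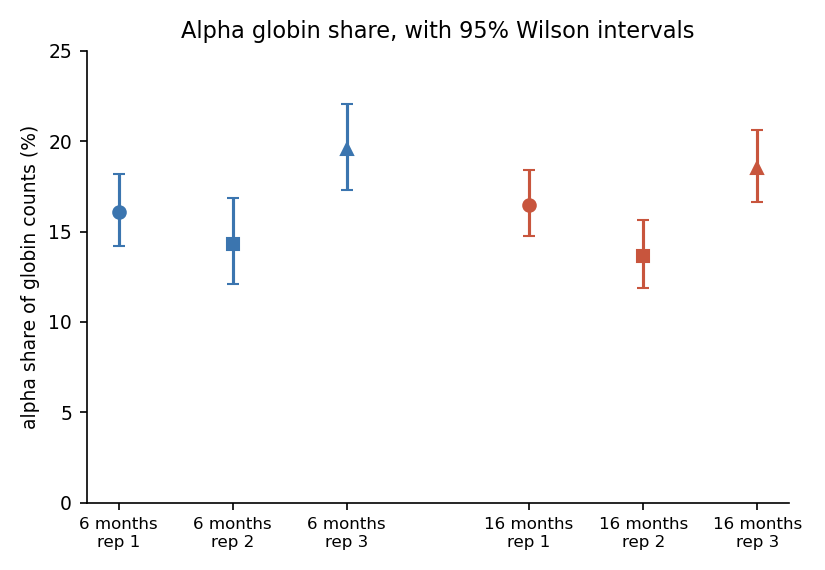
Share of the alpha genes in all adult globin counts (percent) for each sample, with 95% Wilson intervals. The samples of both ages spread over the same range, 13.7% to 19.6%.

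Within the pairs, *Hba-a2* counts were 0.540, 0.905 and 0.618 of those of *Hba-a1* at 6 months and 0.743, 0.521 and 0.712 at 16 months, so that the copies' balance varied among samples without separating the ages. For *Hbb-bt* over *Hbb-bs* the ratios were steadier, 0.216, 0.201 and 0.213 at 6 months and 0.180, 0.196 and 0.215 at 16 months. *Alas2* gave 0.0842, 0.0704 and 0.0582 counts per globin count at 6 months and 0.0652, 0.0798 and 0.0819 at 16 months. The means of this last ratio were 0.0709 ± 0.0130 and 0.0756 ± 0.00911 (SD, n = 3 each), with overlapping samples.

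No other globin was called. Of 12 listed, 10 were matched and 4 passed the filter, and 0 of these were called (edgeR; 1 had an unadjusted p under 0.05, and DESeq2 called 0). Their median log2 fold change was -0.034, against 0.0014 over all tested genes. *Hbq1a*, a theta globin gene of the alpha cluster, had 0.384 ± 0.0498 CPM at 6 months and 0.212 ± 0.0563 CPM at 16 months (log2 fold change -0.82 ± 0.31, adjusted p = 0.216). *Mb*, the oxygen store of muscle, had 0.316 ± 0.105 and 0.383 ± 0.0769 CPM (0.23 ± 0.32, adjusted p = 0.754).

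*Ngb*, the neuronal globin, and *Cygb*, a globin of fibroblast-like cells and some neurons, are expressed by brain tissue itself. *Ngb* had 3.06 ± 0.226 CPM at 6 months and 2.99 ± 0.371 CPM at 16 months, and *Cygb* 43.0 ± 1.53 and 42.2 ± 2.55 CPM. Their log2 fold changes of -0.042 ± 0.12 and -0.026 ± 0.062 did not pass the test (adjusted p = 0.892 and 0.868). The beta-like genes *Hbb-bh0*, *Hbb-bh1* and *Hbb-bh2* of the beta cluster had 0 counts in every sample, which allows up to 0.101 CPM in the shallowest one.

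*Hbb-y*, the embryonic epsilon globin, was present in single samples. It had 32, 1 and 2 counts in replicates 1, 2 and 3 of 6 months and 26, 0 and 0 counts in those of 16 months, and did not pass the filter. *Xist*, the RNA that coats the inactive X chromosome of female cells, was picked after its values were seen: it had 144, 5 and 18 counts at 6 months and 82, 12 and 10 counts at 16 months. The replicate 1 samples of both ages thus stood apart in both transcripts. The part of this in the adult globins was not tested, and without these samples the summed globins differed by 0.64 on the log2 scale. The embryonic alpha-like gene *Hba-x* had 1 count in each replicate 1 sample and 0 in the others.

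Other genes of the red cell lineage were mostly near the floor. Of 24 listed, 23 were matched and 9 passed the filter, with 0 called (edgeR; 2 had an unadjusted p under 0.05, and DESeq2 called 0) and a median log2 fold change of 0.027. Among the 14 that did not pass, 8 had at most 3 counts in every sample, among them *Gata1*, the leading erythroid transcription factor, and *Epb42* and *Rhag* of the red cell membrane. *Slc4a1*, the anion exchanger of that membrane, had 7, 2 and 0 counts at 6 months and 2, 3 and 8 counts at 16 months. *Klf1*, a regulator of the adult beta globins, had 10, 11 and 8 counts at 6 months and 5, 7 and 6 counts at 16 months. In CPM its ages overlapped, with 0.213, 0.367 and 0.191 against 0.151, 0.223 and 0.176. *Car1*, a carbonic anhydrase of red cells, had 4, 5 and 6 counts at 6 months and 0, 2 and 1 at 16 months, lower in every aged sample. None of these markers passed the filter, and none was tested.

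The 9 genes that passed include several that brain or vessel cells also make. *Sptb* and *Ank1*, of the membrane skeleton, had 224 ± 10.3 and 70.6 ± 2.88 CPM at 6 months and 237 ± 26.9 and 73.3 ± 7.45 CPM at 16 months. *Bpgm*, which makes 2,3-bisphosphoglycerate, had 58.9 ± 1.24 and 60.1 ± 2.85 CPM, and *Tmcc2* 209 ± 8.89 and 197 ± 21.1 CPM. *Tal1*, a transcription factor of blood and of some midbrain neurons, had 1.92, 1.83 and 1.69 CPM at 6 months and 2.35, 2.42 and 2.20 CPM at 16 months. Its ages did not overlap, but the log2 fold change of 0.35 ± 0.12 did not pass the test (adjusted p = 0.183).

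*Tfr2*, a transferrin receptor, had 6.29 ± 0.0926 CPM at 6 months and 5.38 ± 0.462 CPM at 16 months (-0.23 ± 0.088, adjusted p = 0.221). *Epor*, the erythropoietin receptor, had 5.81 ± 0.171 and 5.38 ± 0.719 CPM, *Ermap* 0.792 ± 0.169 and 0.657 ± 0.0791 CPM, and *Aqp1*, a water channel of red cells and choroid plexus, 0.400 ± 0.0869 and 0.424 ± 0.208 CPM. The log2 fold changes of the 9 genes lay between -0.30 and 0.35.

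Among genes that reticulocytes share with brain cells, 1 was called. All 14 were tested, 7 had a positive and 7 a negative log2 fold change, and the median was -0.021. *Car2*, a carbonic anhydrase of red cells and oligodendrocytes, fell by 0.29 on the log2 scale (SE 0.056), from 252, 262 and 269 CPM to 203, 224 and 213 CPM (edgeR, adjusted p = 0.031). It was not called without any one sample of 6 months or without replicate 3 of 16 months. *Cat*, the catalase gene, had 41.2 ± 1.04 and 48.0 ± 0.313 CPM (0.22 ± 0.051, adjusted p = 0.0685). Of the 14, 4 had an unadjusted p under 0.05, and DESeq2 called 2.

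Heme synthesis outside *Alas2* held no called gene. Of 11 enzymes and carriers, 0 were called (edgeR; 1 with an unadjusted p under 0.05; DESeq2 0), and the median log2 fold change was 0.031 with a range from -0.19 to 0.12. *Ppox*, the enzyme of the step before last, had 23.3 ± 0.791 CPM at 6 months and 20.4 ± 0.393 CPM at 16 months (-0.19 ± 0.059, adjusted p = 0.140), and *Alad*, the second enzyme, 15.6 ± 0.208 and 14.4 ± 1.95 CPM (-0.12 ± 0.093, adjusted p = 0.553). The summed level of the list was 341 to 347 CPM at 6 months and 338 to 349 CPM at 16 months. *Alas1*, the form of the first enzyme used outside the red cell lineage, is part of it.

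The genes that bind, take up and break down free hemoglobin and heme were tested for 11 of 12 members, with 0 called (edgeR; 1 with an unadjusted p under 0.05; DESeq2 0) and a median of -0.0025. *Hpx*, which binds free heme, had 0.541 ± 0.0384 and 0.696 ± 0.134 CPM (0.35 ± 0.23, adjusted p = 0.473). *Blvra*, which reduces biliverdin, had 21.6 ± 0.683 and 18.9 ± 1.15 CPM (-0.19 ± 0.066, adjusted p = 0.181). Of the iron genes, 11 of 12 were tested and 0 called (edgeR; 1 with an unadjusted p under 0.05; DESeq2 0), with a median of -0.026. *Steap3*, an iron reductase, had 4.31 ± 0.393 and 4.97 ± 0.812 CPM (0.22 ± 0.13, adjusted p = 0.418), and *Aco1*, an iron-sensing protein, 30.2 ± 0.893 and 34.9 ± 1.95 CPM (0.21 ± 0.061, adjusted p = 0.127).

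**Figure D4:**
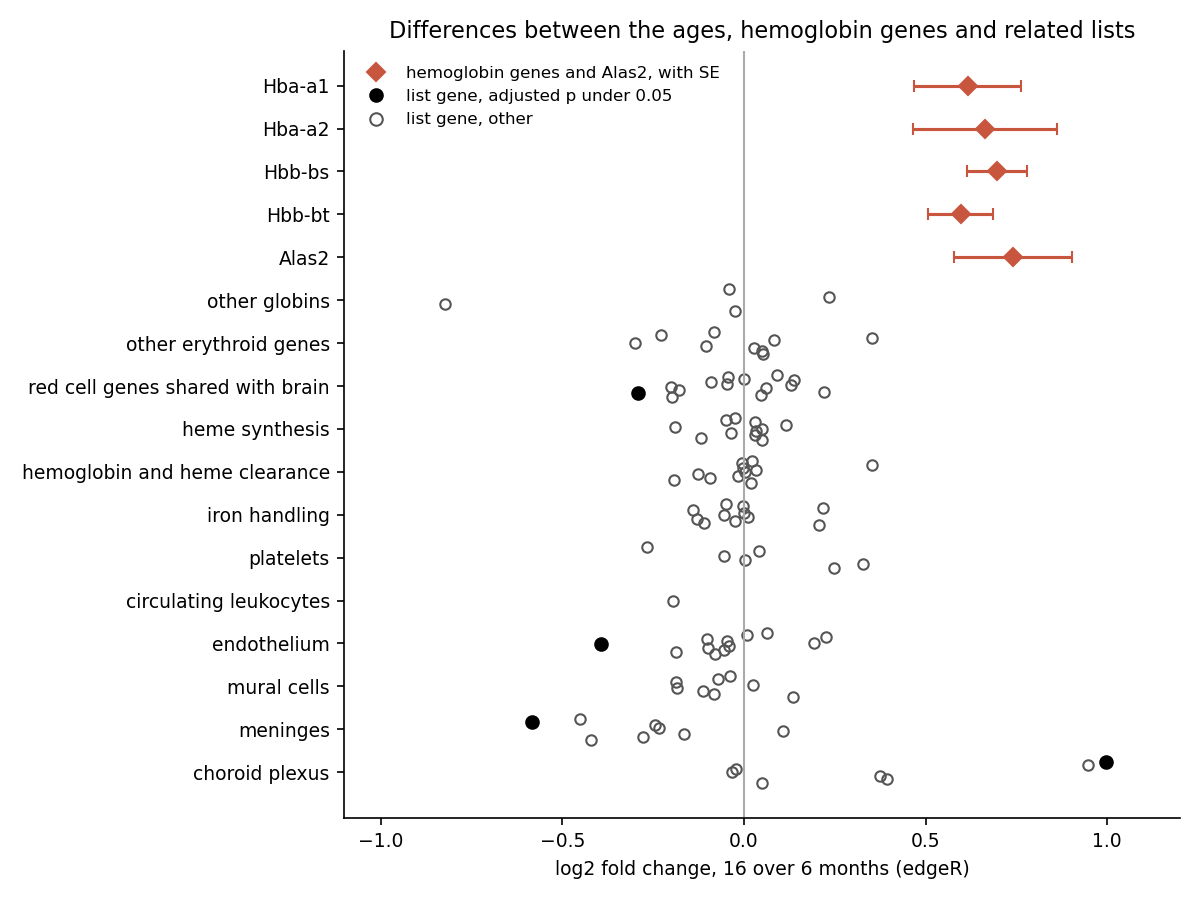
Log2 fold change (16 over 6 months, edgeR) of the hemoglobin genes and *Alas2* with the SE (diamonds) and of the tested genes of each list (circles, filled where the adjusted p was under 0.05). The diamonds lie between 0.60 and 0.74. The filled circles are *Car2*, *Kdr*, *Ogn* and *Ttr*.

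Other blood cells were sparse in these samples. Of 10 platelet genes 6 were tested and 0 called (edgeR; 0 with an unadjusted p under 0.05; DESeq2 0), and the median was 0.022. Their summed level was 12.7 to 13.4 CPM at 6 months and 12.5 to 17.3 CPM at 16 months, with replicate 1 of 16 months the highest, and *Gp1bb* gave the most of it. Without that gene the sums were 5.20 to 5.90 CPM and 4.82 to 5.80 CPM. *Ppbp* and *Clec1b*, which did not pass the filter, were lower in every aged sample, with 5, 4 and 8 against 2, 2 and 2 counts and 6, 4 and 5 against 1, 1 and 3 counts. *Gp1bb*, a subunit of the platelet receptor for von Willebrand factor, had 7.48 ± 0.623 and 9.44 ± 2.25 CPM (0.33 ± 0.15, adjusted p = 0.288), and *Pf4*, a platelet chemokine, 0.524 ± 0.108 and 0.442 ± 0.154 CPM (-0.27 ± 0.30, adjusted p = 0.694).

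Of 16 neutrophil, T cell and B cell genes, 1 passed the filter and 8 had at most 3 counts in every sample. The summed level was 2.07 to 2.67 CPM at 6 months and 1.82 to 2.25 CPM at 16 months. *Lck*, the tested one, is a kinase of T cells and had 1.11 ± 0.170 and 0.946 ± 0.249 CPM (-0.20 ± 0.22, edgeR, adjusted p = 0.695; 0 genes had an unadjusted p under 0.05, and DESeq2 called 0).

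The summed level of vessel genes was alike at both ages or lower at 16 months. The summed level of 12 endothelial genes was 291 to 292 CPM at 6 months and 289.7 to 299 CPM at 16 months. Set against it, the 4 globins had 9.76, 9.56 and 8.86 counts per 100 endothelial counts at 6 months and 15.8, 14.2 and 14.6 at 16 months (9.40 ± 0.472 and 14.8 ± 0.825, SD, n = 3 each), a ratio of 1.58. Of the 12 genes 4 had an unadjusted p under 0.05, DESeq2 called 1, and edgeR called 1, *Kdr*, a receptor for vascular endothelial growth factor, which fell from 10.4 ± 0.100 to 7.91 ± 0.212 CPM (-0.39 ± 0.068, edgeR, adjusted p = 0.0231). *Slc2a1*, the glucose transporter of the blood-brain barrier and the most abundant of the 12, had 68.9 ± 0.738 and 80.5 ± 7.78 CPM (0.22 ± 0.070, adjusted p = 0.145). This gene was higher in every aged sample. The endothelial sum, and the ratio of globin counts to it, include *Slc2a1* and were not computed without it. Among the 12 genes, 8 had a negative and 4 a positive log2 fold change, with a median of -0.050, so the like sums do not mean that the single genes were alike.

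Of 8 pericyte and smooth muscle genes 0 were called (edgeR; 1 with an unadjusted p under 0.05; DESeq2 0). Their median was -0.077, and their summed level 156 to 164 CPM at 6 months and 146 to 152 CPM at 16 months. *Rgs5*, the most abundant of the 8, had 82.0 ± 0.865 and 72.1 ± 6.44 CPM (-0.19 ± 0.067, adjusted p = 0.193). The lower sum at 16 months includes *Rgs5* and was not computed without it. *Myh11*, a smooth muscle myosin, had 5.45 ± 0.309 and 4.80 ± 0.779 CPM (-0.18 ± 0.12, adjusted p = 0.473).

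Summed levels for tissues that adjoin the cortex lay apart between the ages in opposite directions. The summed level of 8 genes of meningeal fibroblasts was 69.1 to 72.8 CPM at 6 months and 57 to 57.2 CPM at 16 months, and their median log2 fold change was -0.26, 7 of 8 being negative. Of these 8, 4 had an unadjusted p under 0.05, DESeq2 called 2 and edgeR 1. *Ogn*, a matrix proteoglycan, fell from 12.1 ± 0.344 to 8.08 ± 1.16 CPM (-0.58 ± 0.098, edgeR, adjusted p = 0.0204). *Slc6a13*, a GABA and taurine transporter, had 8.15 ± 0.281 and 5.95 ± 0.877 CPM (-0.45 ± 0.10, adjusted p = 0.0692). The choroid plexus list, 7 of 8 genes tested, summed to 17.4 to 18.5 CPM at 6 months and 25.8 to 28.6 CPM at 16 months, with a median of 0.37, and 5 of 7 were positive. Without *Ttr* the sums were 8.85 to 8.96 CPM and 9.14 to 10.2 CPM.

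In that list *Ttr*, the thyroid hormone carrier that choroid plexus secretes, rose from 8.95 ± 0.573 to 17.8 ± 1.08 CPM (1.00 ± 0.077, edgeR, adjusted p = 0.000337). It was called under each of the 15 alternatives, which reuse the same samples and so add no support. *Ttr* was the single call of edgeR and of DESeq2 among the 7 genes, 3 of which had an unadjusted p under 0.05. *Otx2*, a transcription factor of choroid plexus, had 0.185 ± 0.0805 and 0.375 ± 0.0936 CPM (0.95 ± 0.38, adjusted p = 0.232). *Kdr* and *Ogn* were not called without any one sample of 6 months or without replicate 3 of 16 months. The part of these other tissues in the globin levels was not tested. The choroid plexus and globin sums were each higher in every aged sample, and the meningeal sum was lower in every aged sample.

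**Figure D5:**
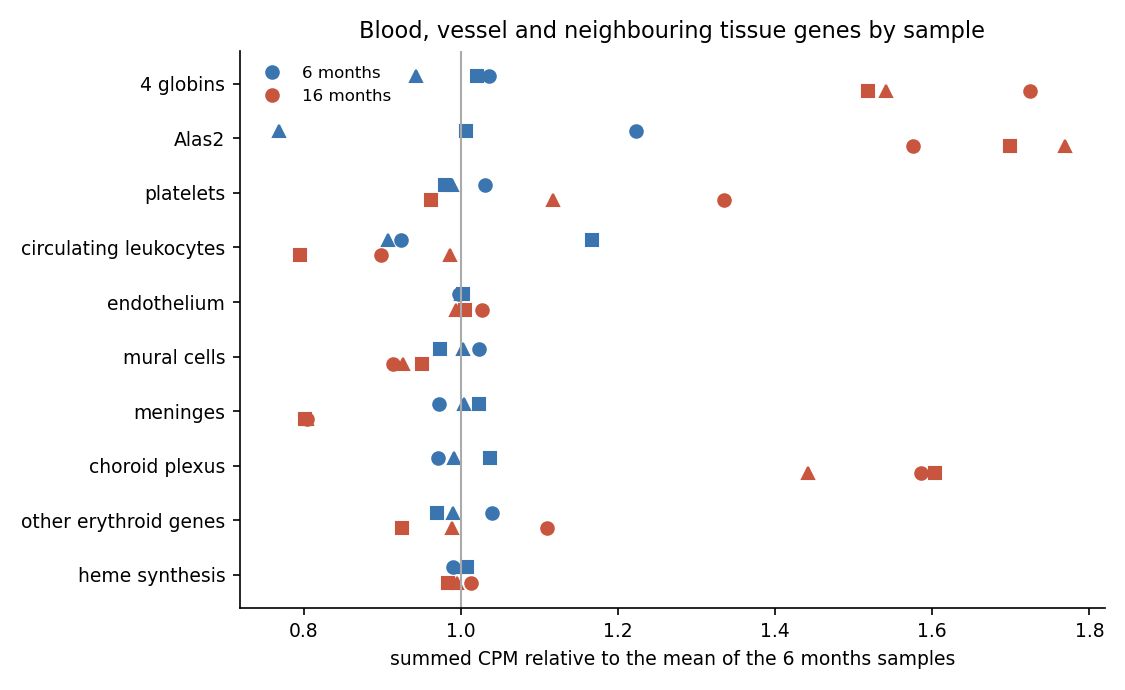
Summed CPM of the 4 globins, of *Alas2* and of the listed gene groups in each sample, relative to the mean of the 6 months samples (blue, 6 months; red, 16 months; circle, square and triangle for replicates 1, 2 and 3). The globins, *Alas2* and the choroid plexus sum lie apart between the ages with the aged samples higher, and the endothelial sums overlap.

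Because the globin levels of the ages formed separate clusters, no correlation of the globin level with these lists was computed across the samples. The 5 tested genes whose log2 levels followed that of the summed globins most closely, measured by Pearson's r over the 6 samples as a description, were *Pdzd2* (r = 0.998), *Tns3* (0.997), *Mlec* (0.996), *Acan* (0.995) and *Ddx19a* (0.994). They were picked for this likeness out of all tested genes, and with ages that lie apart the value mostly measures the step between the ages. *Pdzd2*, a protein with PDZ domains, had 81.6, 79.0 and 77.8 CPM at 6 months and 109, 102 and 102 CPM at 16 months, and *Tns3*, a focal adhesion protein, 95.7, 93.8 and 92.6 against 114, 108 and 109.9 CPM. In all of these genes, as in the globin sum, replicate 1 was the highest aged sample, and their log2 fold changes, from 0.077 in *Ddx19a* to 0.39 in *Pdzd2*, were smaller than those of the hemoglobin genes.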

How the data were processed

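Polyadenylated RNA of 6 whole cortex samples, 3 per age, was sequenced with paired reads. The authors trimmed the reads, aligned them to mm10 with STAR and counted them per Ensembl gene, and the deposited values are these raw counts without normalization. The submitters' processing notes name CASAVA 1.8.2, STAR 2.3.0e and featureCounts 1.5.0-p1, whereas the paper's methods name HTSeq, whose summary lines the tables carry. The strand setting is not given in the sources used here. For every 100 counted reads, 43.4 to 51.4 alignments were not unique and were left out, which bears on the near-identical globin pairs.

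The members and the gene lists were chosen with earlier results of these data known. Gene names, positions and lengths came from the annotation of GRCm38 by identifier (36602 of 38355 genes). Promoter sequences came from RefSeq, with an entry for each of the 5 genes, and coding sequences from the annotated transcripts. The analysis used edgeR 4.0.16 (R 4.3.3) with TMM scaling, filterByExpr, the quasi-likelihood test without covariates, and Benjamini-Hochberg adjustment at 0.05 over all 17120 tested genes, so every adjusted p in the text is of that fit. SEs are the log2 fold change divided by the square root of the test statistic. CPM values used TMM-scaled totals, and log2 levels a prior count of 2. Pairs of samples within an age differed by more than sampling noise (chi-square per degree of freedom 2.73 to 27.6), so that each counted as a sample. The samples of an age are separate brains by the study's description, and p-values measure the spread between them.

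Genes named beside the 5 are every called gene and the 2 tested genes of largest absolute log2 fold change in each list, every tested gene of the other erythroid list, and the 5 genes closest to the globin sum. *Ngb*, *Cygb*, *Hbb-y*, the embryonic globins, *Xist*, *Apex2*, *Alas1*, *Ppbp*, *Clec1b* and the erythroid genes near the floor were named after their values were seen. Alternatives were DESeq2 1.42.0 size factors, upper quartile scaling, DESeq2's Wald test, offsets for GC content and length in 20 bins (98.7% of tested genes), a replicate block, other filters, other ratios of the chains, and each sample left out. Leaving out both replicate 1 samples, and the ratio per unique stretch, were added after seeing the data. Other list genes enter the counts without being named. Figures were drawn with matplotlib 3.10.9.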

Additional observations from a re-analysis of the deposited data

Results flagged for a closer look

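*Hbb-y*, an embryonic globin outside the comparison by age because it did not pass the filter on low counts, was above the limit of 3 counts in 2 samples. It had 32 counts in replicate 1 of 6 months and 26 counts in replicate 1 of 16 months, against 0 to 2 counts in the other samples. No explanation was tested. With 3 samples per age, no sample was examined as an outlier of its group.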

How the results depend on the processing

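The log2 fold changes of the 5 genes and of the summed globins kept their direction under the alternatives compared. As every aged sample lay above every young one, leaving samples out could not be expected to reverse the direction, which adds no support. The fold changes also moved by less than the larger of the log2 SDs of the ages. There were 13 such alternatives for each gene and 11 for the summed globins, without the fits with other filters. Leaving out both replicate 1 samples moved *Alas2* (0.74 to 0.99) and *Hba-a2* (0.66 to 0.45) by more than the smaller SD. Other alternatives did so too. Among them were *Alas2* without young replicate 1 (0.94) or young replicate 3 (0.57), and *Hbb-bt* with the offsets for GC content and length (0.67). The log2 difference of the alpha to beta ratio also moved by less than the larger SD and took both signs. What depended on the processing was the number of genes past the threshold. The main fit called 286 genes (1.67% of those tested), 2 of the 5 members and 4 genes in the fixed lists together. Offsets for GC content and length gave 2423 (14.2%), 5 and 23. DESeq2's Wald test gave 469 genes (1.70%) and 4 members. The fit without a filter on low counts gave 648 genes (2.35%) and 5 members. These 2 shares are of 27569 genes with any count. With 1 sample left out the ranges were 48 to 2211 genes (0.277% to 12.7%), 1 to 5 members and 1 to 14 list genes. The replicate block gave 783 genes (4.57%), 5 members and 7 list genes, and with the offsets as well 3316 (19.4%), 5 and 26. The number of members called was mostly larger where the share over all genes was larger, but did not follow it in step. DESeq2's Wald test called 4 members at 1.70%, against 2 in the main fit at 1.67%. The replicate numbers were not taken as pairs. Same-numbered samples are different mice, their deviations correlated with r = 0.180, 0.0958 and 0.0351, and 5 of 6 samples correlated best with their own number. Whether same-numbered samples were handled together was not tested, and different mice do not settle it. Leaving out both replicate 1 samples gave 399 genes (2.33%) and 3 members. The causes were not tested. Upper quartile scaling called 291 genes, 114 higher and 177 lower, against 134 and 152. The correlations planned between the globin level and the lists were not run, with any alternative, because the ages form separate clusters. At 57 to 156 counts per sample, *Hba-a1*, *Hba-a2* and *Alas2* carry a counting error of 8.01% to 13.2% in a single sample, and erythroid genes under the floor allow no comparison.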
